A study of Mus musculus with 155 samples.

Results

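The 7 transcription factors Dlx1, Dlx2, Dlx6, Sp8, Sp9, Meis2 and Sox11 are known for their part in making olfactory bulb interneurons from adult-born neuroblasts. They were chosen by gene symbol, with earlier results of these data known, and all 7 are among the 3422 genes measured in single mouse brain cells of 5 populations. Sp8 was high in healthy GFP neuroblasts (NB) and low in the other 4 populations, Meis2 was highest in the double-reporter cells (OligNBL), and Sox11 was high in both NB and OligNBL. Dlx6 was lowest in Tomato cells of demyelinated mice (OL), Sp9 was hardly found there, and Dlx1 was at its highest mean there, mostly through 1 set of alike cells. In NB, NBL and OligNBL nearly every cell had at least 1 of the 7 factors among its 500 highest genes, against 14 of 22 OL cells and 11 of 29 O cells.

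The cells came from the subventricular zone and corpus callosum of mice aged 8 to 10 weeks, with 5 mice per condition, and were sorted by reporter before SMART-Seq2, a full-length RNA protocol for 1 cell at a time. NB (37 cells, healthy mice) and NBL (27 cells, demyelinated mice) were GFP cells of strain CB6-Tg(Gad1-EGFP)G42Zjh/J, in which a Gad1 (Gad67) transgene drives EGFP. O (29 cells, healthy) and OL (22 cells, demyelinated) were Tomato cells of strain Olig2-tdTomato TH39Gsat/Mmcd, in which Olig2 sequences drive the reporter. OligNBL (40 cells) were positive for both reporters and came from a cross of both strains, in demyelinated mice by the labels, although their titles and the deposited cell description carry the control mark. Demyelinated mice were taken 6 days after injection of LPC, a lipid that strips myelin. Between gates the mouse strain also differs, so strain and gate cannot be told apart there. No mouse is named for any cell, so each population is 1 sample: there is no replicate check, no test was made, and the SD given below is between cells.

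A cell's level of a gene is log2(value + 1) of the deposited normalized value, and a population's level is the mean over its cells. A gene is called present in a cell when it is among that cell's 500 highest genes, which in the median cell means a level of at least 3.56. Intervals on shares of cells are exact 95% Clopper-Pearson intervals and cover counting error only. The 2 NB cells with fewer than 500 genes detected do not enter shares. A difference of levels of at least 1 is called higher or lower. Many cells resembled each other closely, so cells were also joined into 20 sets by the correlation of their other genes, and a population's cells in 1 set (at least 3 cells) form a part. There were 21 parts holding 149 cells, and 6 cells lay outside them. The number of a set only names it. Sets followed the cell numbers in the titles: 15 of the 21 parts were unbroken runs of neighbouring numbers within their population, such as 78 to 84 for NBL set 13, and of 150 pairs of cells with neighbouring numbers 122 (81.3%) shared a set. What the cell numbers stand for is not given in the labels. Every NBL cell has a higher number than every NB cell, and the OL numbers form a block that holds no O cell. Lesion state and cell number therefore cannot be told apart in NBL against NB or in OL against O. No OligNBL number falls within the NBL block or the OL block. Gate, strain and cell number therefore cannot be told apart in OligNBL against NBL or in OligNBL against OL.

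The markers bore on the populations as follows. EGFP was present in 26 of 35 NB cells, 7 of 27 NBL cells and 12 of 40 OligNBL cells, and in 2 of 22 OL and 1 of 29 O cells. Dcx, a microtubule protein of migrating neuroblasts, was present in 20 NB, 23 NBL, 13 OligNBL, 5 OL and 5 O cells. Mbp, a major myelin protein, was present in 22 of 22 OL and 7 of 29 O cells and in none of the NB, NBL and OligNBL cells. Mbp alone understates the O cells. The median cell had 10 of 14 measured oligodendrocyte genes present in OL, 8 in O, and 0 in NB, NBL and OligNBL. The median cell had 7 of 16 measured neuroblast genes present in NB, 8 in NBL, 7 in OligNBL, 3 in OL and 3 in O. Of the markers of other cell types, no gene of the microglial, mural or ependymal lists was measured. Cells of these types therefore could not be seen. Of 7 endothelial genes 1 was measured, and it was present in the median cell of every population and in every NBL and O cell. Of 13 astrocyte and stem cell genes 1 was measured, and of 13 mature neuron genes 2. Whether cells or RNA of other types were among the sorted cells was not tested.

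A second measurement stands beside every count of low-level cells below. In parts where a cell had one of the 7 factors among its 100 highest genes (a level of about 10.47 or more), 152 of the 167 other cells had some value for that factor, which is 91.0%. In parts with no such cell it was 261 of 729, or 35.8%. Over all 3422 genes the same shares were 82.8% and 20.7%. Of 147 pairs of a factor and a part, 21 had the factor in every cell, and 16 of these held a cell with the factor among its 100 highest. In the 21 pairs the single highest cell held a median of 90.5% of the part's total value. The other cells are all but the highest of a part, and some of them were high too. In NB set 17, for instance, 6 of 11 cells had Sp8 among their 100 highest. Values in many cells thus went with a very high value in a cell of the same set, and 15 of the 21 parts were runs of neighbouring cell numbers. Whether the low values among them are RNA of the cell itself or of a neighbouring cell was not tested. Every count of cells detected or present below includes these low values.

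Dlx genes encode homeodomain proteins of the distal-less family, which drive the GABAergic interneuron program of the ventral forebrain. Sp8 and Sp9 are closely related zinc finger proteins needed by olfactory bulb interneurons, Meis2 is a TALE homeodomain cofactor that works beside Dlx and Pax proteins in neuroblasts, and Sox11 is a SoxC protein of newborn neurons that switches on genes of the neuronal cytoskeleton. In the adult brain, neuroblasts born in the subventricular zone normally migrate to the olfactory bulb, while oligodendrocytes of the corpus callosum arise mainly from resident oligodendrocyte progenitors.

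On GRCm38 with the GENCODE vM21 annotation, Dlx1 (chr2:71528113-71533981, plus strand) and Dlx2 (chr2:71543408-71546754, minus strand) are neighbours that point towards each other, with 9426 bases between their ends. Sp9 (chr2:73271925-73284706) and Meis2 (chr2:115863064-116065839, minus strand) are on the same chromosome, Dlx6 is at chr6:6863334-6868568, and Sp8 (chr12:118846329-118852576) and Sox11 (chr12:27334264-27342574, minus strand) are on chromosome 12. All 7 are protein coding. Dlx1 overlaps the antisense gene Dlx1as, and Dlx6 overlaps Dlx6os1 and Dlx6os2. SMART-Seq2 does not mark strand, so reads of these partners cannot be told apart, and the partners themselves were not analysed here.

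The promoters of Sp8 and Sp9 are shown because the mean levels of the paralogs had opposite directions between healthy and lesion GFP cells. For Sp9 this rested mostly on NBL set 13: the difference was 1.55, and 0.38 without that set. RefSeq (GRCm38.p6) gave promoter windows for 6 of the 7 genes. The bases from 250 to 11 before a start are printed for 1 of the 3 Sp8 starts (chr12:118846983-118847222, plus strand, inside an intron of another annotated Sp8 transcript) and for the Sp9 start (chr2:73271676-73271915, plus strand). Capitals mark the longest stretch of letters that the windows share.
Sp8: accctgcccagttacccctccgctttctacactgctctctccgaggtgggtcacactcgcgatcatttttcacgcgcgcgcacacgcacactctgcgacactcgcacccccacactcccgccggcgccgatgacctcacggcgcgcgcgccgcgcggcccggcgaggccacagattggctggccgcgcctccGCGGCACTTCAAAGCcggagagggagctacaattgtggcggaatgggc
Sp9: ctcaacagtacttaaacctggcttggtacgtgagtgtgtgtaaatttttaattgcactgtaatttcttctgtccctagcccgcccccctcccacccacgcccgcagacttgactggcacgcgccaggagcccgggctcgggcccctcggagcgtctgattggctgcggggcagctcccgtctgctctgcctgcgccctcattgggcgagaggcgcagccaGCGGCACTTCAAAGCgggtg
The shared stretch is 15 bases long and ends 44 bases before the Sp8 start and 16 bases before the Sp9 start. GCGGCACTTCAAAGC or its reverse complement was found in 2 of 32851 promoter windows of 300 bases, those of Sp8 and Sp9. The other Sp8 windows shared at most 8 and 7 letters in a row with Sp9. On either strand, both printed stretches also hold CCAAT (37.4% of all windows of 300 bases), and TATAAA (13.6%) is in neither. GGGCGG (35.7%) is in the full windows of 300 bases of both starts. Among the printed bases it is in those of Sp9 only. These are matches of letters only.

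Sp8 was highest in healthy GFP neuroblasts. Its level in NB ran from 0 to 18.99 with a median of 8.88, and the mean was 7.63 ± 5.49 (SD, 37 cells). In NBL the lowest, median and highest cells were at 0, 1.51 and 4.37 (mean 1.74 ± 1.39). In OL they were at 0, 0 and 4.29 (mean 1.24 ± 1.54), in O at 0, 0.53 and 4.12 (mean 0.93 ± 1.16), and in OligNBL at 0, 0 and 12.76 (mean 0.60 ± 2.03). NB thus held cells far above any NBL, OL or O cell, while its lowest cells were at 0 like those of every population. Only 1 OligNBL cell was in the range of the high NB cells, and the next highest OligNBL cell was at 1.69.

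Sp8 was present in 24 of 35 NB cells (68.6%, interval 50.7 to 83.1%) and in 5 of 27 NBL cells (18.5%, 6.30 to 38.1%). Presence in OligNBL was 1 of 40 cells, and among Tomato cells it was 3 of 22 in OL and 2 of 29 in O. Among its 100 highest genes it was found in 12 NB cells, which lay in 4 different sets, in 1 OligNBL cell and in no NBL, OL or O cell. The NB parts differed widely: the mean was 12.05 in set 17, where all 11 cells had it present with a lowest level of 8.35, 10.96 in set 20, 6.54 in set 18, 4.21 in set 16 and 1.56 in set 19. In the order of levels NB stood first, 5.89 above NBL, but the lowest NB part lay below the highest NBL part (2.56), so the range of part means overlapped. With sets joined at 0.5 in place of 0.4, the part means for Sp8 were apart in NBL against NB and in OligNBL against NB. NBL, OL, O and OligNBL followed each other by 0.30 to 0.50, and neighbours in that order did not differ beyond the spread of their parts.

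The difference for Sp8 was −5.89 in NBL against NB, −7.03 in OligNBL against NB and −6.70 in O against NB. With each part left out in turn, the first ran from −7.34 to −4.02, the second from −8.48 to −5.16 and the third from −8.14 to −4.82. Only 0.146% of the 3422 genes had a smaller (more negative) difference in NBL against NB. The part means of O and NB were apart for Sp8, 0.80 to 1.04 in O against at least 1.56 in NB. In OligNBL against NBL the difference was −1.14, and it fell under 1 in size without NBL set 14 or without OligNBL set 7 (−0.83 for the smallest).

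Sp9 had another distribution than its paralog. Its level in NBL ran from 0 over a median of 2.40 to 14.42 (mean 2.67 ± 3.04), and in OligNBL from 0 over 1.88 to 11.47 (mean 2.30 ± 2.68). NB cells ran from 0 to 6.41 with a median of 0 (mean 1.12 ± 1.85), O cells from 0 to 3.39 with a median of 0 (mean 0.88 ± 1.22), and OL cells from 0 to 2.01 with a median of 0 (mean 0.15 ± 0.49). Cells at 0 occurred in every population, and OL had the fewest cells with any value, 2 of 22. Sp9 was present in 10 of 27 NBL cells (37.04%, 19.4 to 57.6%), 7 of 40 OligNBL cells (17.5%, 7.34 to 32.8%) and 4 of 35 NB cells (11.4%, 3.20 to 26.7%). It was present in 0 of 22 OL cells, which allows up to 15.4%, and in 0 of 29 O cells, which allows up to 11.9%.

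The NBL cells with Sp9 were mostly 1 set. In NBL set 13 all 7 cells had it present (mean 6.01, lowest 3.88), and the cell at 14.42 held 99.3% of that part's total. The other NBL parts had means of 1.03 to 1.78. In OligNBL the highest part was set 11 (mean 5.77, 4 cells, none among the 100 highest genes), followed by set 7 at 3.59. Sp9 was 1.55 higher in NBL than in NB, and 0.38 without NBL set 13. It was 1.18 higher in OligNBL than in NB, and 0.75 at the smallest with a part left out. It was 2.15 higher in OligNBL than in OL, 1.72 to 2.59 with each part left out in turn, and the lowest OligNBL part (0.54) lay above the highest OL part (0.25). O lay 0.74 above OL, under the size called, yet its part means (0.66 to 1.11) did not overlap those of OL. Above them, NBL, OligNBL, NB and O followed each other with overlapping parts.

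**Figure D1:**
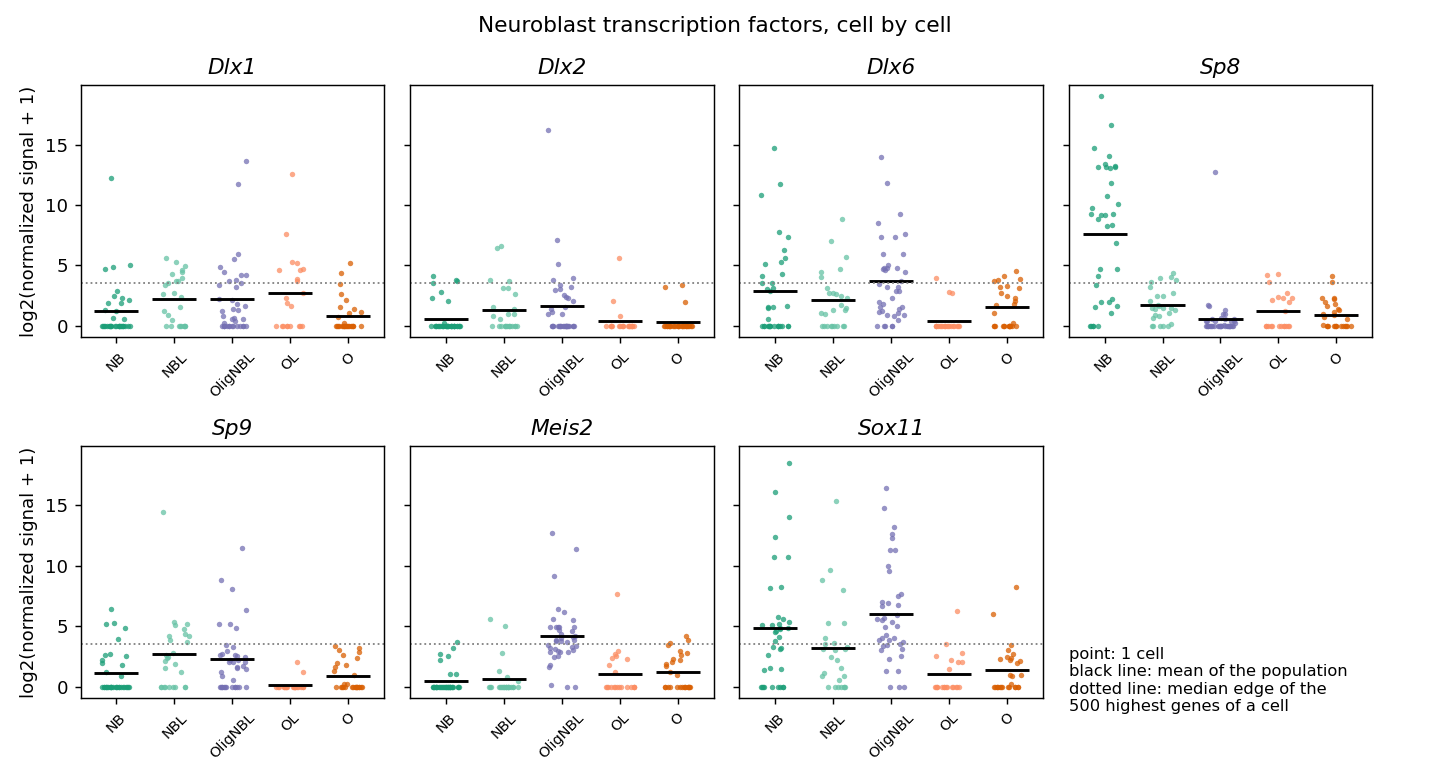
Level of each factor, log2(normalized signal + 1), in each cell by population; each point is 1 cell, black lines are population means and the dotted line is the median edge of the 500 highest genes (3.56). Sp8 reached 18.99 in NB and at most 4.37 in NBL, and Meis2 lay above 0 in 38 of 40 OligNBL cells.

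Meis2 was highest in the double-reporter cells. Its level in OligNBL ran from 0 over a median of 3.81 to 12.71 (mean 4.15 ± 2.52, 40 cells). O cells ran from 0 over 0 to 4.21 (mean 1.23 ± 1.46), OL cells from 0 over 0 to 7.63 (mean 1.07 ± 1.84), NBL cells from 0 over 0 to 5.56 (mean 0.59 ± 1.48) and NB cells from 0 over 0 to 3.73 (mean 0.45 ± 1.03). The median cell of every population but OligNBL was at 0, and single cells overlapped between all populations. Some value was found in 38 of 40 OligNBL cells, against 14 of 29 O, 8 of 22 OL, 6 of 27 NBL and 7 of 37 NB cells. Meis2 was present in 23 of 40 OligNBL cells (57.5%, 40.9 to 72.96%), 3 of 29 O (10.3%, 2.19 to 27.4%), 2 of 27 NBL, 1 of 22 OL and 1 of 35 NB cells.

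The OligNBL parts had Meis2 means of 5.38 (set 7), 4.01 (set 8), 3.69 (set 10), 3.46 (set 9) and 3.31 (set 11), all above the highest part elsewhere, OL set 5 at 2.25. The 2 OligNBL cells with Meis2 among their 100 highest genes lay in sets 7 and 8, where they held 90.5% and 98.0% of the part's total. In sets 9 and 10, with no such cell, 4 of 5 and 10 of 11 cells still had a value, up to 6.13 and 6.41. Without the highest cell the OligNBL mean was 3.93. The difference was 3.56 against NBL, 3.08 against OL and 3.70 against NB, and with each part left out in turn these stayed between 3.15 and 3.74, 2.67 and 3.76, and 3.29 and 3.88. Below OligNBL, O, OL, NBL and NB followed each other by 0.14 to 0.48, with overlapping parts. Meis2 was 0.14 higher in NBL than in NB and 0.16 lower in OL than in O.

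Sox11 was highest in OligNBL and NB, and lower in NBL. Its level in OligNBL ran from 0 over a median of 5.21 to 16.42 (mean 5.99 ± 4.11), in NB from 0 over 4.51 to 18.54 (mean 4.83 ± 4.74) and in NBL from 0 over 2.43 to 15.35 (mean 3.18 ± 3.68). O cells ran from 0 over 0.18 to 8.24 (mean 1.38 ± 1.99) and OL cells from 0 over 0 to 6.23 (mean 1.04 ± 1.65). The Tomato cells overlapped the lower range of the other populations, and none of them reached a level of 10. Sox11 was present in 28 of 40 OligNBL cells (interval 53.5 to 83.4%), 20 of 35 NB cells (57.1%, 39.4 to 73.7%), 8 of 27 NBL cells (29.6%, 13.8 to 50.2%), 2 of 29 O cells and 1 of 22 OL cells. It was among the 100 highest genes in 7 OligNBL cells, 6 of them in 3 parts and 1 outside the parts, in 6 NB cells, 5 of them in 2 parts and 1 outside, and in 1 NBL cell.

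The OligNBL part with the highest Sox11 was set 7 (mean 9.60, lowest cell 5.39, present in 10 of 10), and the NB part was set 16 (mean 7.34, lowest cell 4.51, present in 11 of 11). In NBL set 14 all 11 cells had a value, and the cell at 15.35 held 98.6% of the part's total. Sox11 was 4.95 higher in OligNBL than in OL (3.75 to 5.85 with each part left out) and 2.81 higher than in NBL (1.61 to 4.22). It was 3.46 lower in O than in NB (−4.25 to −2.40), with part means of 0.66 to 1.44 in O and of at least 1.59 in NB. NBL against NB had a difference of −1.66, which fell under 1 in size without NB set 16 or without NBL set 13 (−0.60 for the smallest). OligNBL stood 1.16 above NB, but without OligNBL set 7 the difference was −0.048. These 2 populations therefore cannot be ordered for Sox11, and along the order OligNBL, NB, NBL, O and OL no neighbours were apart in their part means.

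**Figure D2:**
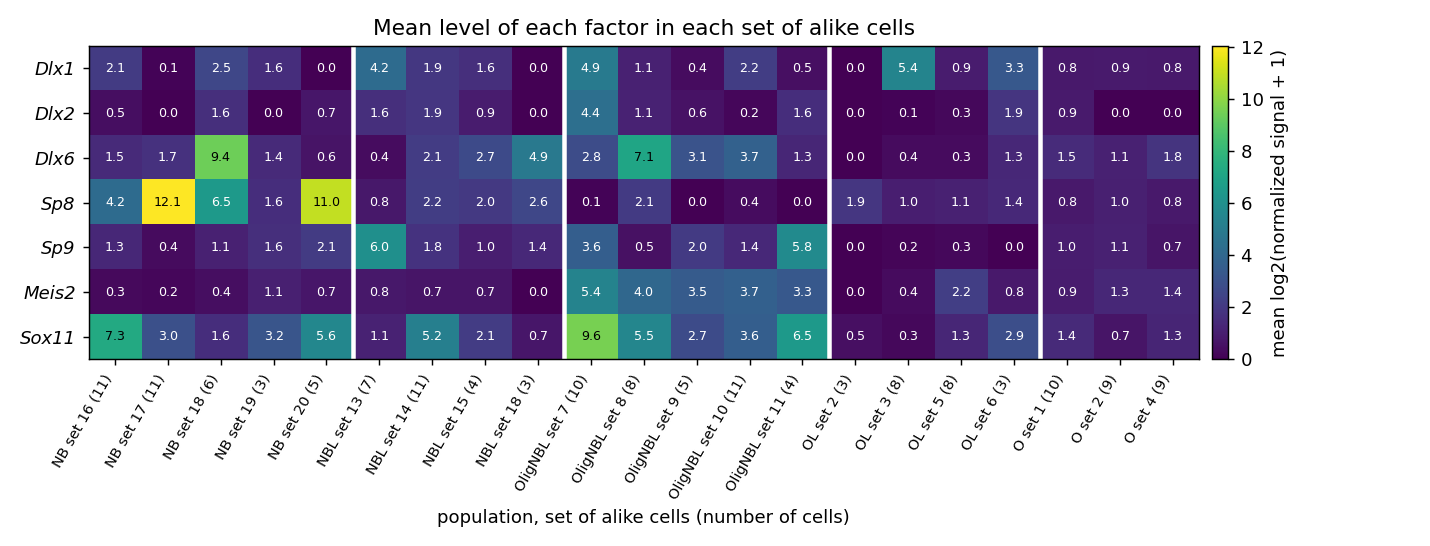
Mean level, log2(normalized signal + 1), of each factor (rows) in each of the 21 parts (columns, with the number of cells in parentheses), white lines dividing the populations and colour giving the mean. Sp8 was highest in NB set 17 (12.05), and Meis2 was at 3.31 or more in each OligNBL part.

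Dlx6 was spread over both GFP populations and OligNBL. Its level in OligNBL ran from 0 over a median of 3.08 to 13.96 (mean 3.70 ± 3.32), in NB from 0 over 1.56 to 14.70 (mean 2.87 ± 3.74), in NBL from 0 over 1.51 to 8.88 (mean 2.18 ± 2.37), in O from 0 over 1.08 to 4.55 (mean 1.53 ± 1.64) and in OL from 0 over 0 to 3.97 (mean 0.43 ± 1.13). The 5 cells with Dlx6 among their 100 highest genes were 3 NB cells of set 18 and 2 OligNBL cells of set 8. These parts had the highest means, 9.41 and 7.09, and every one of their cells had it present (6 of 6 and 8 of 8). Dlx6 was present in 17 of 40 OligNBL (42.5%), 12 of 35 NB (34.3%), 6 of 27 NBL (22.2%), 5 of 29 O (17.2%) and 1 of 22 OL cells (4.55%).

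Dlx6 was 3.27 higher in OligNBL than in OL (2.42 to 3.57 with each part left out in turn). It was 1.52 higher in OligNBL than in NBL, and 0.67 without OligNBL set 8. It was 1.34 lower in O than in NB, and −0.077 without NB set 18. In OL against O the difference was −1.10, and −0.98 without O set 4. No neighbours in the order OligNBL, NB, NBL, O and OL were apart in their part means.

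Dlx1 ran against the other factors in 1 place, the Tomato cells of demyelinated mice. Its level in OL ran from 0 over a median of 2.11 to 12.59 (mean 2.76 ± 3.21, 22 cells), and in O from 0 over 0 to 5.21 (mean 0.82 ± 1.43, 29 cells). NBL cells ran from 0 over 2.36 to 5.65 (mean 2.21 ± 2.01), OligNBL cells from 0 over 1.04 to 13.66 (mean 2.19 ± 3.06) and NB cells from 0 over 0 to 12.20 (mean 1.20 ± 2.37). Every population overlapped every other, and neighbours in the order OL, NBL, OligNBL, NB and O did not differ beyond the spread of their parts. Dlx1 was present in 9 of 22 OL cells (40.9%, 20.7 to 63.6%), 10 of 27 NBL cells (37.04%), 11 of 40 OligNBL cells (27.5%), 4 of 35 NB cells (11.4%) and 2 of 29 O cells (6.90%).

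Mbp and Trf, the iron carrier transferrin of oligodendrocytes, were present in 22 of 22 OL cells and so in all 9 with Dlx1. None of the 9 had Dcx, Gad1 or EGFP, which were present in 5, 2 and 2 of the 22. The neuronal tubulin gene Tubb3 was present in 2 of the 9 and in 4 of the 22. All 9 had at least 1 of 16 neuroblast genes present, as all 22 did. Mcm5, a helicase subunit of DNA replication, was present in 8 of the 9 and in 10 OL cells in all. These cells were mostly set 3, where 8 of 8 cells had a value (lowest 2.73) and 7 had Dlx1 present. The cell at 12.59 held 97.4% of that part's total, and the median of the 7 others was 4.63. OL was 1.94 higher than O, and 0.41 higher without OL set 3. NBL was 1.01 higher than NB, and 0.31 higher without NBL set 13. In OligNBL 2 cells had Dlx1 among their 100 highest genes, and the cell at 13.66 held 98.9% of the total of set 7, in which the median of the others was 3.80.

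Dlx2 was the factor present in the fewest cells. Its level ran in OligNBL from 0 over a median of 0 to 16.20 (mean 1.61 ± 2.94), in NBL to 6.65 (mean 1.33 ± 1.96), in NB to 4.14 (mean 0.61 ± 1.31), in OL to 5.63 (mean 0.39 ± 1.26) and in O to 3.36 (mean 0.29 ± 0.91). The median cell was at 0 in every population, and the OligNBL cell at 16.20 stood far above the next one, at 7.11. That cell held 99.9% of the total of set 7, whose other 9 cells all had a value, with a median of 3.05. Dlx2 was present in 5 of 40 OligNBL, 4 of 27 NBL, 4 of 35 NB and 1 of 22 OL cells. It was present in 0 of 29 O cells, which allows up to 11.9%. It was 1.22 higher in OligNBL than in OL, and 0.30 without OligNBL set 7. Along the order OligNBL, NBL, NB, OL and O the part means of all neighbours overlapped.

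**Figure D3:**
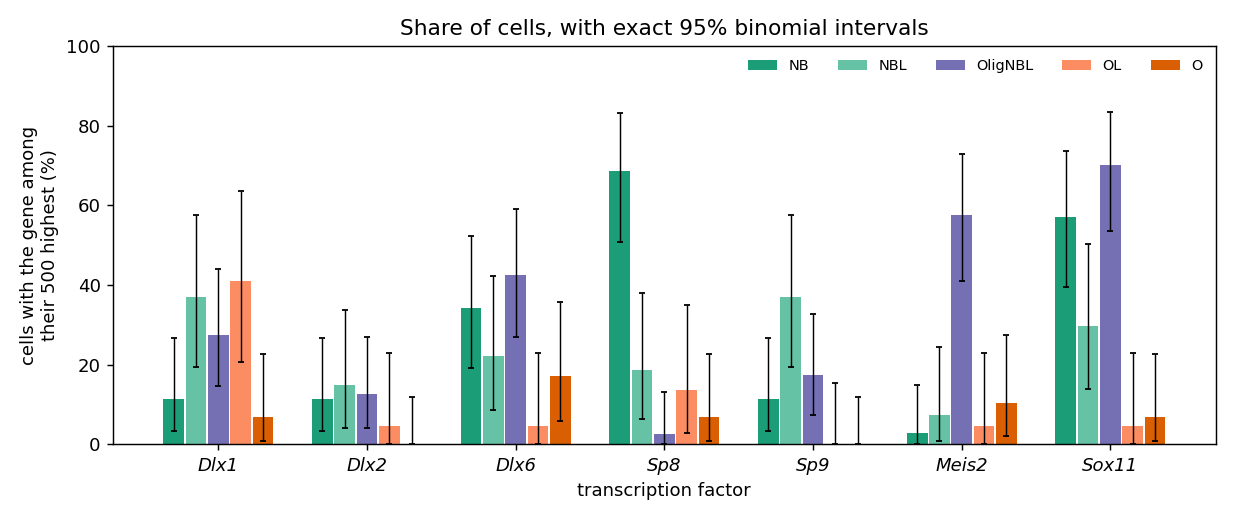
Share of cells (%) with each factor among their 500 highest genes, by population, with exact 95% binomial intervals as bars. Sp8 in NB (68.6%), Sox11 in OligNBL (28 of 40 cells) and NB (57.1%) and Meis2 in OligNBL (57.5%) are the 4 shares above 50%.

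Counted over the factors, each comparison had its own members. In NBL against NB, lesion against healthy GFP cells, 2 of 7 were higher (Dlx1, Sp9) and 2 lower (Sp8, Sox11), against 17.4% of all genes called higher and 17.3% lower. In OL against O 1 was higher (Dlx1) and 1 lower (Dlx6), against 15.9% and 15.7%. Counts of 1 or 2 in 7 lie near these background shares, and the median difference of the 7 factors was 0.14 and −0.16, against −0.0036 and −0.099 for all genes. In O against NB none was higher and 3 were lower (Dlx6, Sp8, Sox11), against 19.4% and 20.7%, with a median of −0.37 against 0.094.

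OligNBL against OL was the comparison in which most factors moved one way: 5 of 7 were higher (Dlx2, Dlx6, Sp9, Meis2, Sox11) and none lower, against 27.3% and 21.1% of all genes, with a median difference of 2.15 against 0.13. In OligNBL against NBL 3 were higher (Dlx6, Meis2, Sox11) and 1 lower (Sp8), against 25.7% and 20.3%. In OligNBL against NB 3 were higher (Sp9, Meis2, Sox11) and 1 lower (Sp8), against 27.5% and 18.9%. Comparisons that share a population are not independent of each other. Of 42 differences 22 were of at least 1 in size, and 11 stayed so with each part left out in turn. Parts were left out for the 7 factors only, so no share over all genes stands beside the 11, and whether it is unusual is unknown.

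Part means were apart in 7 of the 42. They were Meis2 in OligNBL against NBL (6.78% of all genes were apart in that direction), Meis2 and Sp9 in OligNBL against OL (9.44%, and 4.03% downward), Meis2 in OligNBL against NB (6.95%, and 3.45% downward), Sp8 and Sox11 lower in O against NB (6.43%) and Sp9 lower in OL against O (8.83%). At this joining point none of the 7 was apart in NBL against NB, where 1.99% of all genes were apart upward and 1.26% downward.

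**Figure D4:**
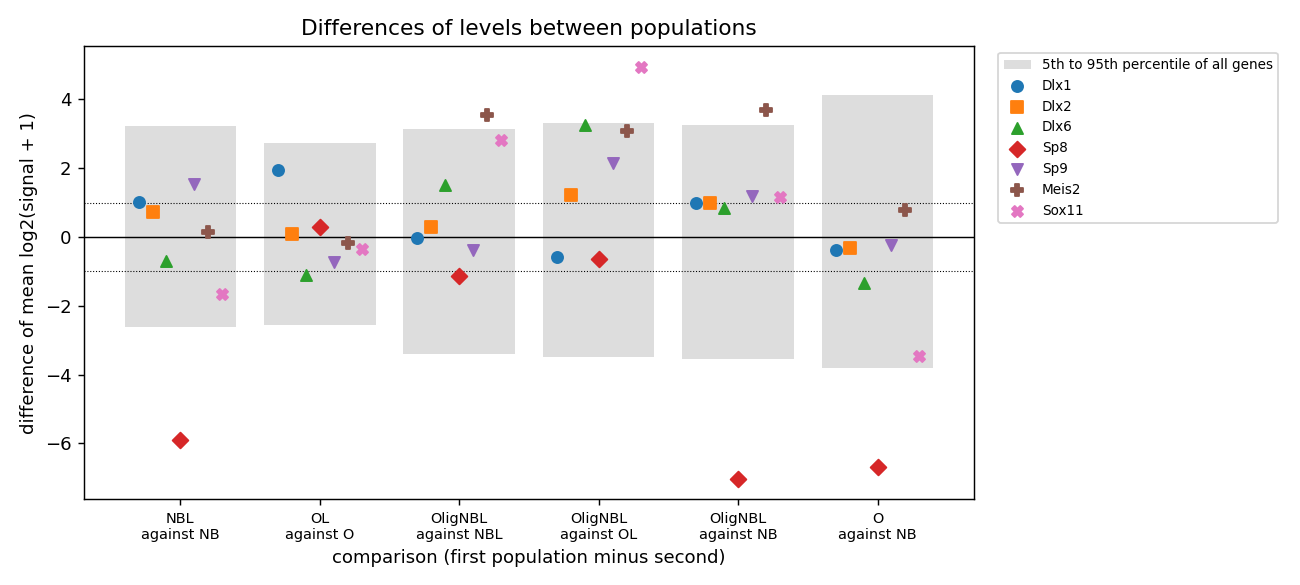
Difference of levels, log2(normalized signal + 1), first population minus second, for each factor in the 6 comparisons; grey bars span the 5th to 95th percentile of all 3422 genes and dotted lines mark a difference of 1 either way. Sp8 lies below the grey bar in the 3 comparisons with NB, at −5.89, −7.03 and −6.70.

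The same cells often held several factors. The number present per cell was 2.30 ± 1.11 (SD) in OligNBL, 1.97 ± 1.15 in NB, 1.67 ± 0.78 in NBL, 0.73 ± 0.63 in OL and 0.48 ± 0.74 in O. At least 1 was present in 38 of 40 OligNBL cells, 34 of 35 NB cells and 26 of 27 NBL cells, but in 14 of 22 OL cells and 11 of 29 O cells. At least 3 were present in 18 OligNBL, 8 NB, 4 NBL and 0 OL cells and in 1 O cell. The highest number was 5, in 1 NB cell with Dlx2, Sp8, Sp9, Meis2 and Sox11.

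**Figure D5:**
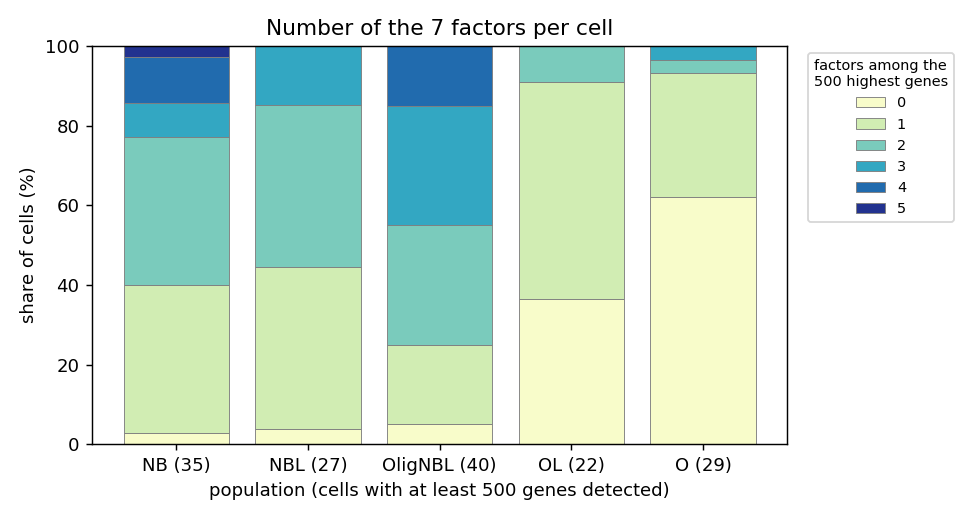
Share of cells (%) by the number of the 7 factors among their 500 highest genes, in each population, with the number of cells in parentheses. At least 3 factors were present in 18 of 40 OligNBL cells and in 0 of 22 OL cells.

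The pairs differed with the population. Alone, Sp8 was present in 24 and Sox11 in 20 of 35 NB cells, and Sox11 in 28 and Meis2 in 23 of 40 OligNBL cells. Factors this common fall together in many cells through their single shares, and whether any pair exceeds these was not tested. In NB, Sp8 and Sox11 were both present in 12 of 35 cells and Dlx6 and Sp8 in 10, so that 10 of the 12 NB cells with Dlx6 also had Sp8. In NBL, Dlx1 and Sp9 were both present in 7 of 27 cells, of 10 with each, and 6 of the 7 were cells of set 13, while no NBL cell had Dlx1 together with Sox11. In OligNBL, Meis2 and Sox11 were both present in 19 of 40 cells (9 of them in set 7), all 7 cells with Sp9 had Sox11, and 9 of 11 cells with Dlx1 had Sox11. The neighbours Dlx1 and Dlx2 were both present in 3 OligNBL cells and 1 NBL cell. Across all cells the levels of the factors were only weakly correlated, with Pearson's r between −0.24 (Sp8 with Meis2) and 0.30 (Sp9 with Meis2); within populations, after subtracting population means, r was 0.018 for Sp8 with Meis2 and ran from −0.16 (Dlx1 with Sp8) to 0.27 (Sp9 with Meis2). The cells share sets and a common normalization, and the values are a description.

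Factors of the interneuron lineage and genes of oligodendrocyte progenitors were present in the same cells in every population. At least 1 of 9 measured progenitor genes was present in 31 of 40 OligNBL cells, and in 29 of the 38 with a factor. Of the 28 OligNBL cells with Sox11, 25 had a progenitor gene, and of the 23 with Meis2, 18. Pdgfra, the growth factor receptor of the progenitors, was present in 17 OligNBL cells, 15 of them with Sox11 and 11 with Meis2. Ptprz1, a receptor phosphatase of progenitors, was present in 18, of which 17 had Sox11. Genes of the mature oligodendrocyte list were present in 4 OligNBL cells, each with a factor, and Mbp in none.

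In the other populations a progenitor gene was present in 10 of the 14 OL cells with a factor, 16 of the 26 NBL cells, 6 of the 11 O cells and 9 of the 34 NB cells. Over all cells, with or without a factor, it was 14 of 22 OL, 17 of 27 NBL, 14 of 29 O and 9 of 35 NB cells. The cells with a factor are part of all cells, and in NBL and NB they are nearly all of them, so the shares there could hardly differ. The counts therefore do not show whether factors and progenitor genes go together, which was not tested. Dcx was present in 20 of 35 NB cells, and in 18 of the 24 with Sp8. In NBL 23 of 27 cells had it, among them all 10 with Dlx1 and all 10 with Sp9. In OligNBL, where 13 of 40 cells had Dcx, it was present in 8 of the 28 cells with Sox11. Tubb3, a neuronal tubulin, was present in all 28 of these and in 22 of the 23 OligNBL cells with Meis2, as it was in 38 of 40 OligNBL cells overall. Every cell of every population had at least 1 of the 16 neuroblast genes present, so that list does not tell cells apart at this rank.

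Other fate factors of interneurons and neuroblasts were counted in the same way. Of a list of 72, 22 were measured. In NBL against NB 6 were higher and 5 lower, beside 17.4% and 17.3% of all genes. Zeb1, a zinc finger homeobox repressor, had a level of 6.82 ± 6.16 in NBL and of 0.31 ± 0.85 in NB. Etv1, an ETS factor, was at 6.79 ± 5.30 and 0.31 ± 0.86. Sp4, a further Sp family member, had levels of 0.49 ± 0.92 in NBL and 4.60 ± 5.59 in NB. Bcl11b, a zinc finger factor, was at 2.46 ± 2.56 and 6.38 ± 4.66. Sp4 and Sp8 were thus both lower in NBL, while Sp9 was higher, mostly through NBL set 13.

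In OligNBL against NBL 5 of the 22 were higher and 8 lower, beside 25.7% and 20.3% of all genes. Against NB they were 6 and 6, beside 27.5% and 18.9%, and against OL 7 and 1, beside 27.3% and 21.1%. The higher counts lie near these shares. Tcf4, an E protein that pairs with other basic helix-loop-helix factors, was at 9.01 ± 5.03 in OligNBL, and at 1.69 to 2.10 in the other 4 populations. Nfix, a nuclear factor I protein, was at 7.82 ± 4.63 in OligNBL and at 0.95 to 2.19 in the others. Zeb1 (0.75 ± 1.11) and Etv1 (0.48 ± 1.22) were low in OligNBL, as Sp4 (0.043 ± 0.17) and Bcl11b (1.88 ± 3.63) were beside NB. Pou3f4, a POU homeodomain factor, was at 3.93 ± 3.28 in OligNBL and 0.058 ± 0.27 in OL, and Nr2f1, an orphan nuclear receptor, at 0.0064 ± 0.040 and 4.14 ± 4.01.

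In O against NB 3 of the 22 were higher and 7 lower, beside 19.4% and 20.7% of all genes. Bcl11b was at 0.83 ± 1.44 in O, Sp4 at 0.34 ± 0.84, Nr2f1 at 4.56 ± 4.14 against 0.00023 in NB, and Ebf1, an early B cell factor family member, at 5.84 ± 1.39 against 2.35 ± 1.84. In OL against O none was higher and 2 were lower, beside 15.9% and 15.7% of all genes. They were Ebf1 at 3.13 ± 2.31 in OL and Sp3 at 0.16 ± 0.76 against 1.99 ± 3.06. The median difference of the list was 0.16 in NBL against NB and −0.34 in OL against O, beside −0.0036 and −0.099 for all genes.

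For each factor, the genes with the most similar pattern were taken by Pearson's r of levels over all cells of the 5 populations, among 3196 genes detected in at least 20 cells. Tex30 (r = 0.73), Rars2 (0.71), Hagh (0.65) and Med6 (0.62) were among the closest to Sp8. Sept9 (0.77), Capn7 (0.77), Xndc1 (0.76), Sec63 (0.76) and Vash2 (0.76) were closest to Dlx2, with values for both genes in 15 to 19 cells. Hspd1 (0.73) and its pseudogene Hspd1-ps3 (0.61), whose reads may be split between near-identical copies, led for Dlx6, followed by Atrx (0.60).

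Rab4a (0.66), Chga (0.62), Nudt19 (0.62), 0610037L13Rik (0.59) and Psmd14 (0.58) were closest to Sp9. Among those closest to Meis2 were Nsmce1 (0.63), Mfng (0.62), Tpst2 (0.62) and Ifit1 (0.62). Pknox2 (0.58), a TALE homeodomain gene, led for Sox11, before Cox4i1 (0.51), Sept11 (0.49), Dclk1 (0.48) and Med28 (0.48). The likeness was weakest for Dlx1, with Orc4 (0.50), Sec61g (0.48), Snrpd2 (0.47), Cdca7 (0.47) and Tbcc (0.46). None of the 7 factors was among the closest genes of another, and 11 of the 35 were also among the closest by Spearman's rank correlation. Cells of 1 set share both high and low genes, so these correlations rest on fewer independent points than there are cells.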

How the data were processed

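RNA of sorted cells was measured by SMART-Seq2, 1 cell per sample. The submitters' processing notes name kallisto, limma and build GRCm38 without versions. The deposited table is named as estimated counts, but its values are a normalized signal: column totals lie within 0.101% of each other, and what 1 read is worth cannot be recovered, so depth is unknown and no count model was used. The sources used here do not say how the authors chose the 3422 genes. In 1 NB cell 3069 genes share a floor above 0, and detection there means a value above the floor. No 2 cells had identical values. Doublets were not called.

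Populations follow the labels. Levels are means of log2(value + 1), which understates differences of low genes; differences of at least 1 were called. Genes detected per cell had medians of 950.5 (OL) to 1397 (OligNBL). Sets of alike cells came from average linkage on Pearson correlations of log2(value + 1) without the 7 factors, joined at 0.4; 4 sets held cells of more than 1 population. Named genes are the 7 factors, the 5 most correlated genes of each, up to 4 genes per list and comparison with the largest difference of at least 1, and Gad1 and EGFP; Dcx, Tubb3, Mbp, Trf, Pdgfra, Ptprz1 and Mcm5 were added to these by hand. A few of the correlated genes are not reported here. The factors, lists, the 0.4 and the 500 were chosen with earlier results of these data known, and the description by the 100 highest genes was added after the values were seen. Promoter sequences are RefSeq's (GRCm38.p6, 250 bases before to 50 after a start). The difference of levels was tested on values shuffled between cells with a shift added, and the rank rule on genes placed at known ranks. The sets, the parts and the steps built on them were not tested in this way. Tools were scipy 1.17.1, pandas 2.3.3 and numpy 2.4.6 under Python 3.11.15, with figures from matplotlib 3.10.9. Alternatives were another pseudocount, rank, joining point, weighting of sets, cells with more genes, cells with higher numbers, a minimum value and leaving out cells or parts.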

Additional observations from a re-analysis of the deposited data

How the results depend on the processing

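No paired analysis was possible because each population is 1 sample and no comparison came from a test. Counts below are of the 7 factors called, main counts in parentheses. With a pseudocount of 10 the totals were 2 in NBL against NB (4), 1 in OL against O (2), 2 in OligNBL against NBL (4), 3 in OligNBL against OL (5) and 2 in OligNBL against NB (4); the higher counts were 0 in NBL against NB (2), 3 in OligNBL against OL (5) and 1 in OligNBL against NB (3), and the lower counts 0 in OL against O (1) and 0 in OligNBL against NBL (1). In NBL against NB, 1 factor was higher with sets weighted equally, with cells numbered above 21, or without the 2 cells under 500 genes, Dlx1 dropping under 1 each time. OL against O had 1 in all and 0 lower with sets weighted equally or with only genes of a mean scaled value of at least 20 kept. With cells of at least 1000 genes, 2 were higher in OL against O, 0 lower in OligNBL against NBL, 1 lower in OligNBL against OL and 1 higher in O against NB.

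Leaving out each part in turn gave totals of 1 to 5 in NBL against NB (higher 0 to 2, lower 1 to 3), 1 to 2 in OL against O (higher 0 to 1, lower 0 to 1), 3 to 4 in OligNBL against NBL (higher 2 to 3, lower 0 to 1), 5 to 6 in OligNBL against OL (higher 4 to 5, lower 0 to 1), 2 to 6 in OligNBL against NB (higher 1 to 5, lower 1 to 1) and 2 to 3 in O against NB (higher 0 to 0, lower 2 to 3). Sox11 in OligNBL against NB ran from −0.048 (without OligNBL set 7) to 2.21 (without NB set 16).

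Pairs of a factor and a population with presence in at least 50% of cells numbered 4, and 2 by the 300 highest genes, 9 by the 800 highest and 17 by any value. By any value the factors per cell were 3.32 in NB, 4.26 in NBL, 4.95 in OligNBL, 2.14 in OL and 3.03 in O, and 100% of OligNBL cells had a factor with a progenitor gene (72.5% by the 500 highest). Part means were apart in 11 pairs when sets were joined at 0.5 and in 8 at 0.35, the 7 pairs above among them both times; at 0.5 Sp8 was also apart in NBL against NB and in OligNBL against NB, Dlx6 in OligNBL against OL and Meis2 in O against NB. By Spearman correlation 11 of the 35 closest genes were shared. The cause of these shifts was not tested. Depth is unknown, so a factor that was not detected in a cell may lie under its reach.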
